A study of Mus musculus with 82 samples.

Results

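Mammary tumours of 9 BALB/c mouse models were set against those of 3 FVB models, gene by gene, with the model as the unit. The 79 libraries of these 12 models, of 82 libraries and 13 models in the series, were taken by the strain given in their labels. Counts were scaled to the library total adjusted by a normalization factor per library (TMM) to give CPM. Log2 values were averaged over the libraries of a model, and each model gave 1 value per gene. A gene separated the strains where the lowest model mean of one strain stood above the highest model mean of the other. The remaining model, E0771 of C57BL/6 with 3 libraries, was placed against both strains.

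Gene expression was measured by mRNA sequencing of cryopreserved, untreated mammary tumours, with 2 or more biological replicates per model. The BALB/c group held 64 libraries of 2153 (7), 2208 (12), 2224 (4), 2225 (10), 2250 (11), 2336 (5), 4T1 (5), 9263 (7) and T12 (3). The FVB group held 15 libraries of MMTV-NEU (8), MMTV-PYMT (5) and KPB1-A (2). Total counts, in M (mega), were 14.4 to 132.7 M in BALB/c libraries, 17.2 to 89.7 M in FVB libraries and 57.7 to 76.3 M in each E0771 library. 4T1 and E0771 are mammary carcinoma cell lines, each a single line grown as a tumour. MMTV-NEU and MMTV-PYMT are named for an oncogene under the mouse mammary tumour virus promoter, which is active in mammary epithelium. The labels give no genotype beyond these names, no age and no litter, and whether tumours of 1 model shared a donor or a passage is not stated. No model was made on more than 1 strain, so strain and tumour model cannot be told apart, and the p-values describe the spread between model means. Tumours were bulk tissue, in which fewer cells of a type and less RNA per cell cannot be told apart.

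Inbred mouse strains differ by fixed sequence variants, gene copy number and the insertion of retrotransposed gene copies. The major histocompatibility complex (MHC) is among the most divergent regions: BALB/c, FVB and C57BL/6 carry different haplotypes of it. Its class II E molecule pairs an alpha chain from H2-Ea with a beta chain from H2-Eb1, and C57BL/6 mice lack the E molecule because of a deletion in H2-Ea, which the mouse assembly therefore lists as H2-Ea-ps. That assembly, mm10, is built from C57BL/6. Processed pseudogenes are copies of a messenger RNA pasted back into the genome, and a read from a copy and from its coding gene can be told apart only where their bases differ.

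Among these copies were those of ribosomal protein genes, and 2 pairs are shown because the copy of the first was lower and the copy of the second higher in BALB/c, each differing from its gene by few bases. Rpl34, which encodes a protein of the large ribosomal subunit (mm10 chr3:130726831-130730398, minus strand), and Rpl34-ps1 (chr6:71124610-71124963, plus strand) aligned over 354 bases with 2 mismatches. Rpl21, another protein of the large subunit (chr5:146832890-146837032, plus strand), and Gm10163 (chr9:88390837-88391317, plus strand) aligned over 481 bases, also with 2 mismatches. Sequences are GENCODE M21 transcripts on GRCm38 and cover coding bases 117 to 333 of Rpl34 and 321 to 447 of Rpl21. Capitals mark the bases at which gene and copy differ.
Rpl34: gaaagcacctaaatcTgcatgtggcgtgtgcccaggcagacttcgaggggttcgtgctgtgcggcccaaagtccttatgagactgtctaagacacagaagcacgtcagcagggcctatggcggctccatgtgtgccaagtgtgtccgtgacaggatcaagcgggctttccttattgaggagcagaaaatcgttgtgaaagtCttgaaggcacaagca
Rpl34-ps1: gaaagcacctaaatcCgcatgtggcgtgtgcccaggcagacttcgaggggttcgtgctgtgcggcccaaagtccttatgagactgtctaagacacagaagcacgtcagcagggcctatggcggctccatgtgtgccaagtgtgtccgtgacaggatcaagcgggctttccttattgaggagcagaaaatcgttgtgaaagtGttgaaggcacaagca
Rpl21: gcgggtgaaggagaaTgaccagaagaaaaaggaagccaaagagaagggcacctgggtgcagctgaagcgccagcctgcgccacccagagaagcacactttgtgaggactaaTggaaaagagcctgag
Gm10163: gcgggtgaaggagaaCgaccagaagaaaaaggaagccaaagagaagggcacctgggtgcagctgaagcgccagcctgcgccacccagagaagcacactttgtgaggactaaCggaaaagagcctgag

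Of 22847 genes tested, 316 passed limma on the model means at an adjusted p under 0.05 (1.38%), 129 higher (0.565%) and 187 lower (0.818%) in BALB/c. At an unadjusted p under 0.05 there were 3261 genes. Model means did not overlap for 1108 genes (4.85%), 550 higher in BALB/c (2.41%) and 558 lower (2.44%), and 304 of the 316 called genes were among them. For 99 genes (0.433%) even the single libraries did not overlap, 49 higher and 50 lower in BALB/c. The genes named below were chosen by this same contrast, so their p-values are not independent of the choice. The median difference of all genes, BALB/c minus FVB, was 0.01 on the log2 scale. At the edge of the rule, Far2os1 just separated, with its lowest BALB/c model mean at 0.0016 CPM (2225) against FVB means of 0.00153 (MMTV-NEU) and 0 CPM. Gm12648 just failed, with BALB/c means of 0 (2336) to 0.0314 CPM (4T1) against 0 CPM in all FVB models.

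These counts rested on 3 FVB models. Without KPB1-A 633 genes were called and 3651 separated, without MMTV-NEU 151 and 1447, and without MMTV-PYMT 173 and 1762. Without T12 and 4T1 323 were called and 1699 separated. The titles carry a library number whose meaning is not given. Within a wide range of these numbers, which held 5 BALB/c models and 3 FVB models, 139 genes were called and 2548 separated, and all 310 of the called genes that could be tested there kept their sign. Within a narrow range, which held 3 models of each strain, 4 were called, Gvin1, BC023719, Gm10163 and Rpl34-ps1, and 297 of 299 kept their sign. The called genes were chosen on the same libraries, so the signs they kept are no independent check.

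The class II E genes were the widest separation among antigen presentation genes. H2-Eb1, the beta chain (chr17:34305867-34316674), had model means of 16.1 (2225) to 234 CPM (4T1) in BALB/c, median 40.7 CPM, against 0.903 (MMTV-NEU), 0.64 (MMTV-PYMT) and 0.713 CPM (KPB1-A) in FVB. All 9 BALB/c means were above all 3 FVB means, a log2 difference of 5.85 ± 0.83 (SE; limma adjusted p = 0.0024). In E0771 H2-Eb1 stood at 550 ± 319 CPM (SD, n = 3), above every BALB/c mean. Single libraries met at the edge, with the lowest BALB/c library at 0.764 CPM and FVB libraries of 0.135 to 1.67 CPM.

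H2-Ea-ps, the alpha chain (chr17:34341959-34344645), separated BALB/c and FVB in the same direction. It had 6.9 (2225) to 105 CPM (4T1) in BALB/c, median 16.7 CPM, against 0.386 (MMTV-NEU), 0.231 (MMTV-PYMT) and 0.467 CPM (KPB1-A) in FVB, a difference of 5.99 ± 0.89 (limma adjusted p = 0.00344). E0771 had no count of it in 3 libraries, which allows up to 0.0149 CPM. H2-Eb1 therefore put E0771 with BALB/c and H2-Ea-ps put it with FVB.

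The class II genes next to them overlapped between strains. H2-Ab1, the A beta chain, had 26.7 to 327 CPM in BALB/c, median 64.2 CPM, against 61.9 (MMTV-NEU), 48 (MMTV-PYMT) and 47.7 CPM (KPB1-A) in FVB, a difference of 0.82 ± 0.69 (limma adjusted p = 0.647). H2-Aa, the A alpha chain, had 20.8 to 313 CPM in BALB/c against 28.5 to 57.9 CPM in FVB (exact two-sided permutation p = 0.482, and 0.516 adjusted over 15 genes so tested), and Cd74, the invariant chain, 72.5 to 1190 CPM in BALB/c against 164 to 207 CPM in FVB. All 3 were chosen to stand beside H2-Eb1 after its values were seen. Of 12 measured class II genes 2 were called higher in BALB/c and 0 lower, against 1.38% of all genes called. The same 2 separated (16.7%, against 4.85% of all genes), and the median difference was 0.32 against 0.01 over all genes. The summed level of the 12, the mean log2 CPM of the list, was 0.99 to 4.58 in BALB/c against 1.07 to 2.02 in FVB and 4.38 in E0771.

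**Figure D1:**
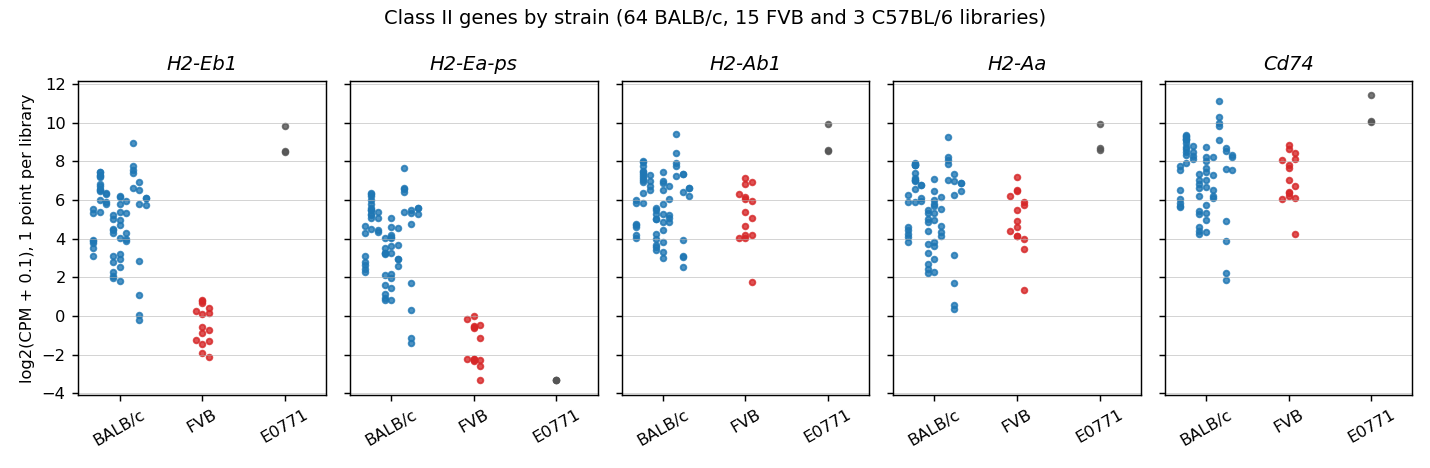
Library values of 5 class II genes on the log2(CPM + 0.1) scale, 1 point per library, for 64 BALB/c, 15 FVB and 3 E0771 (C57BL/6) libraries, with models of a strain side by side within its column. H2-Eb1 and H2-Ea-ps stand higher in BALB/c than in FVB, and H2-Ab1, H2-Aa and Cd74 overlap between them. E0771 libraries stand at 354, 378 and 918 CPM for H2-Eb1, with a 4T1 library at 498 CPM, and at 0 CPM for H2-Ea-ps.

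Some genes of the interferon and innate immune families separated. Ifi44l, an interferon-induced gene, had 1.13 (2225) to 13.7 CPM (T12) in BALB/c, median 5.62 CPM, against 0.0278 (MMTV-NEU), 0.0482 (MMTV-PYMT) and 0 CPM (KPB1-A) in FVB and 0 CPM in E0771, where counts of 0 allow up to 0.0348 CPM in KPB1-A and 0.0149 CPM in E0771. It rose by 6.31 ± 0.84 in BALB/c (limma adjusted p = 0.00152), and no single library of the strains overlapped. Mndal, a DNA sensor of the Ifi200 family, had 5.63 (2225) to 92.3 CPM (4T1) in BALB/c, median 14.9 CPM, against 0.492 (MMTV-NEU), 1.15 (MMTV-PYMT) and 0.814 CPM (KPB1-A) in FVB and 66.3 ± 4.43 CPM in E0771. It rose by 4.45 ± 0.74 (limma adjusted p = 0.00833, and 0.0719 without MMTV-NEU). Its neighbour Ifi203 separated too, with 10.8 to 254 CPM in BALB/c against 6.21 to 8.01 CPM in FVB, but did not pass (limma adjusted p = 0.223). Of 8 measured Ifi200 genes 2 separated (25%, against 4.85% of all genes), with a median difference of 1.14. Ifi200 genes are close copies of each other, so the split of reads among them is uncertain.

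Gvin1 (chr7:106156556-106215326), a very large interferon-inducible GTPase, went the other way. It had 0 (2153, which allows up to 0.00562 CPM) to 0.341 CPM (2224) in BALB/c, median 0.0378 CPM, against 16.2 (MMTV-NEU), 13.3 (MMTV-PYMT) and 9.2 CPM (KPB1-A) in FVB, a fall of 7.98 ± 0.44 on the log2 scale in BALB/c (limma adjusted p = 1.58e-06). E0771 had 67.5 ± 9.91 CPM, above all FVB models. Ly6e, a lipid-anchored surface protein and induced by interferon, had 93.9 (2153) to 682 CPM (9263) in BALB/c, median 141 CPM, against 3175 (MMTV-NEU), 3273 (MMTV-PYMT) and 1443 CPM (KPB1-A) in FVB and 2030 ± 186 CPM in E0771. It fell by 3.56 ± 0.59 in BALB/c (limma adjusted p = 0.00782), with no overlap even of single libraries, and the adjusted p was 0.0751 without MMTV-NEU and 0.0665 without MMTV-PYMT. Of 24 measured interferon response genes 0 were called by limma and 0 separated, with a median difference of -0.17. Of all genes 1.38% were called and 4.85% separated, shares at which a list this small can hold 0. At an unadjusted p under 0.05 there were 0 of them, edgeR and DESeq2 on sums per model called 0 each, and edgeR on single libraries called 12. The last takes libraries of 1 model as replicates, so its counts, here and below, do not measure spread between models. Over all 22847 genes the unadjusted p gave 3261, edgeR on sums 377, DESeq2 on sums 1449 and edgeR on libraries 13142. Of 15 measured Ly6 genes Ly6e alone was called or separated (6.67% separated, against 4.85% of all genes).

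The other genes with the widest gaps higher in BALB/c had varied roles, from protein synthesis to the cytoskeleton. Vars, the valyl-tRNA synthetase of the MHC region (chr17:35000987-35016322), had 246 (2208) to 405 CPM (2153) in BALB/c, median 322 CPM, against 88.5 (MMTV-NEU), 111 (MMTV-PYMT) and 97.2 CPM (KPB1-A) in FVB. It rose by 1.70 ± 0.17 (limma adjusted p = 0.000176), with E0771 at 431 ± 34.6 CPM on the BALB/c side. Rplp1, a protein of the ribosomal stalk, had 834 to 2569 CPM in BALB/c against 352 to 403 CPM in FVB (a rise of 1.91 ± 0.30, limma adjusted p = 0.00458). Dynlt1b, a dynein light chain with near-identical neighbours, had 54.2 to 180 CPM in BALB/c against 11.2 to 21.5 CPM in FVB (2.84 ± 0.34, limma adjusted p = 0.000628). Tpm3-rs7, a tropomyosin copy, had 198 to 480 CPM in BALB/c against 18.5 to 30.2 CPM in FVB and 11.1 ± 0.893 CPM in E0771 (3.87 ± 0.30, limma adjusted p = 1.27e-05). Bend4, a gene with a BEN domain, had 9.37 to 47.8 CPM in BALB/c against 1.15 to 4.23 CPM in FVB and 1.87 CPM in E0771. Cd300lh, a receptor-like gene of the CD300 family without a match in the annotation used, had 1.72 to 26.4 CPM in BALB/c against 0.0107 to 0.0214 CPM in FVB and 36.9 ± 8.37 CPM in E0771.

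The genes with the widest gaps lower in BALB/c also had varied roles. Nr1h5, a nuclear receptor of the farnesoid X receptor family (chr3:102939658-102964133), had 0 (T12, which allows up to 0.0125 CPM) to 0.0168 CPM (2225) in BALB/c, median 0.0114 CPM, against 6.56 (MMTV-NEU), 13.1 (MMTV-PYMT) and 123 CPM (KPB1-A) in FVB and 0.0441 CPM in E0771. All BALB/c libraries stood below all FVB libraries, a fall of 8.82 ± 0.68 (limma adjusted p = 1.28e-05). A2m, the protease inhibitor alpha-2-macroglobulin, had 0.436 to 3.09 CPM in BALB/c against 68.8 to 85.6 CPM in FVB and 0.279 CPM in E0771, a fall of 6.07 ± 0.80 (limma adjusted p = 0.00136). Its MMTV-PYMT mean was carried by libraries of 82.5 and 280 CPM, with 0.673, 1.61 and 4.32 CPM in the other MMTV-PYMT libraries, which lay within the BALB/c library range of 0 to 8.29 CPM. Mfi2, the iron-binding melanotransferrin, had at most 0.582 CPM (2250) in BALB/c against 113 (MMTV-NEU), 57.2 (MMTV-PYMT) and 1.62 CPM (KPB1-A) in FVB (limma adjusted p = 0.00437). Aldh6a1, a mitochondrial enzyme of valine breakdown, had 8.53 to 15.9 CPM in BALB/c against 52.2 to 77 CPM in FVB and 7.42 ± 0.275 CPM in E0771, a fall of 2.44 ± 0.27 (limma adjusted p = 0.000292).

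Further named genes lower in BALB/c were the chemokine Ccl27a, at 0.0419 to 0.729 CPM in BALB/c against 5.18 to 10.7 CPM in FVB, and the ciliary gene Fam161a, at 0.812 to 1.74 CPM in BALB/c against 5.89 to 6.49 CPM in FVB. Gdpd3, a lipid phosphodiesterase, had 0.796 to 3.79 CPM in BALB/c against 9.1 to 51.8 CPM in FVB. Calls of Dnajc6 (auxilin, which uncoats clathrin vesicles), Qpct (glutaminyl cyclase) and Npy (neuropeptide Y) depended on single models. Dnajc6 had 0.146 to 5.5 CPM in BALB/c against 17.3 to 164 CPM in FVB, with limma adjusted p = 0.0277, and 0.0501 to 0.102 without 2153, KPB1-A, MMTV-NEU or MMTV-PYMT in turn. Qpct had 0.576 to 1.76 CPM in BALB/c against 3.8 to 7.73 CPM in FVB (limma adjusted p = 0.0106, and 0.117 without MMTV-NEU and 0.104 without MMTV-PYMT). Npy had at most 0.104 CPM in BALB/c against 114 (MMTV-NEU), 2.94 (MMTV-PYMT) and 0.623 CPM (KPB1-A) in FVB, with limma adjusted p = 0.0231, 0.094 without MMTV-PYMT and 0.141 without KPB1-A replicate 2.

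**Figure D2:**
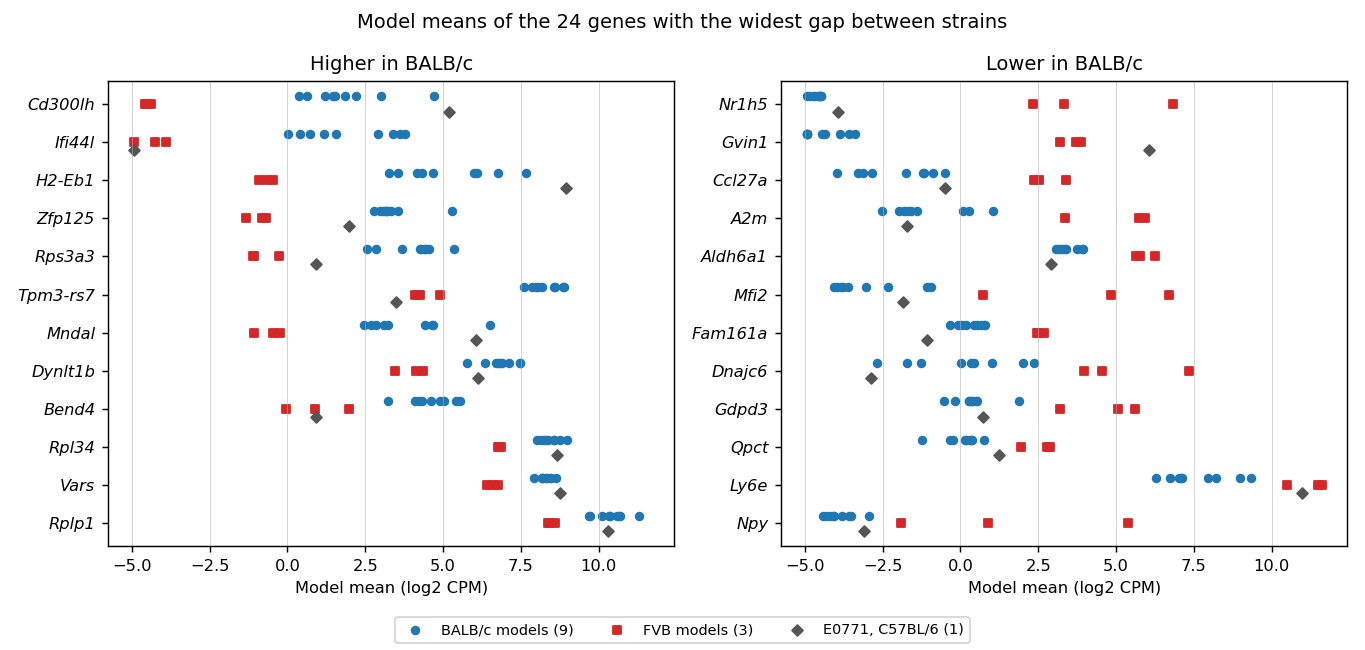
Model means in log2 CPM of the 12 called genes with the widest gap in each direction, leaving out predicted genes and pseudogenes by symbol and genes whose higher strain averaged under 5 CPM, with 9 BALB/c means (circles), 3 FVB means (squares) and the E0771 mean (diamonds) per gene. No BALB/c mean overlaps an FVB mean, and E0771 falls beside BALB/c for Rpl34 and Aldh6a1 and beside FVB for Ifi44l, Tpm3-rs7 and Ly6e.

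Pseudogenes made up 25% of the called genes and 7.99% of the genes tested. Of 1825 tested pseudogenes 79 were called (4.33%) and 157 separated (8.60%), against 160 called (0.964%) and 709 separated (4.27%) of 16605 protein-coding genes. At the level of single libraries 38 pseudogenes and 38 protein-coding genes did not overlap. Of the 1825, 1145 (62.7%) matched a protein-coding transcript at 95% identity or more over at least 80% of their length, and of the 157 that separated 89 (56.7%) did.

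Rpl34 and its copy Rpl34-ps1, whose bases stand above, moved in opposite directions. Rpl34 had 263 (2250) to 517 CPM (2225) in BALB/c, median 332 CPM, against 115 (MMTV-NEU), 117 (MMTV-PYMT) and 108 CPM (KPB1-A) in FVB and 407 ± 67.9 CPM in E0771. Rpl34-ps1 had 4.29 (2208) to 8.82 CPM (2225) in BALB/c, median 5.37 CPM, against 120 (MMTV-NEU), 124 (MMTV-PYMT) and 108 CPM (KPB1-A) in FVB and 4.09 ± 0.604 CPM in E0771. In FVB the copy thus carried about as many counts as the gene. Rpl34 rose by 1.63 ± 0.20 in BALB/c (limma adjusted p = 0.00093) and Rpl34-ps1 fell by 4.46 ± 0.26 (limma adjusted p = 2.03e-06). Summed with both of its tested copies, Rpl34 had 268 to 527 CPM in BALB/c against 236 (MMTV-NEU), 242 (MMTV-PYMT) and 218 CPM (KPB1-A) in FVB, a log2 difference of 0.62 that still did not overlap.

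For 4 further coding genes, Ndufs5, Cox7a2l, Capza1 and Gm10073, a copy separated lower in BALB/c and the gene itself higher. BC002163, a copy of the complex I gene Ndufs5, had 0.373 to 1.36 CPM in BALB/c against 17.5 to 26.7 CPM in FVB, a fall of 4.85 ± 0.42 (limma adjusted p = 3.32e-05). Ndufs5 itself had 20.4 to 56.8 CPM in BALB/c against 12.9 to 19.2 CPM in FVB, which separated but did not pass (limma adjusted p = 0.113), and the sum overlapped with a difference of -0.08. Gm6969, a copy of the respiratory chain gene Cox7a2l, had 0.992 to 2.46 CPM in BALB/c against 42.4 to 80.2 CPM in FVB (a fall of 4.83 ± 0.38, limma adjusted p = 1.33e-05). Cox7a2l had 142 to 282 CPM in BALB/c against 91.2 to 126 CPM in FVB, and the sum overlapped (0.27). Gm3608, a copy of Capza1, the alpha subunit of actin capping protein, had 4.23 to 12.1 CPM in BALB/c against 57.2 to 67.9 CPM in FVB (a fall of 3.34 ± 0.35, limma adjusted p = 0.000189). Capza1 had 97.6 to 280 CPM in BALB/c against 58 to 69.8 CPM in FVB (a rise of 1.34 ± 0.27, limma adjusted p = 0.0303), and the sum of the gene and both copies overlapped (0.39). For Gm10073 and its copy Gm11942 the sum did not overlap, with 16.3 to 53.3 CPM in BALB/c against 10.4 (MMTV-NEU), 6.21 (MMTV-PYMT) and 11.7 CPM (KPB1-A) in FVB, a difference of 1.70. Gm10073 rose by 1.76 ± 0.38 (limma adjusted p = 0.0417), and Gm11942 had a difference of -1.53 ± 0.36 (limma adjusted p = 0.063). In 1 pair the order was turned round, with the copy Tmem181c-ps higher and Tmem181a lower in BALB/c.

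The Rpl21 family held copies of both directions. Gm10163 had 199 (T12) to 499 CPM (2225) in BALB/c, median 292 CPM, against 4.47 (MMTV-NEU), 6.35 (MMTV-PYMT) and 9.09 CPM (KPB1-A) in FVB and 15.3 ± 1.03 CPM in E0771, a rise of 6.08 ± 0.43 (limma adjusted p = 7.89e-06). Rpl21-ps8 had 0.102 to 0.407 CPM in BALB/c against 5.57 to 11.8 CPM in FVB, a fall of 5.04 ± 0.46 (limma adjusted p = 5.97e-05). Of its 30 tested copies 3 separated higher and 4 lower in BALB/c, and the sum of gene and copies differed by -0.07 and overlapped. Rpl21 itself had 335 to 676 CPM in BALB/c against 496 (MMTV-NEU), 551 (MMTV-PYMT) and 1780 CPM (KPB1-A) in FVB. Rps3a3, a copy of the small-subunit gene Rps3a1, had 7.28 to 41.2 CPM in BALB/c against 0.436 to 0.804 CPM in FVB (a rise of 4.86 ± 0.53, limma adjusted p = 0.000295), while Rps3a1 had 732 to 5043 CPM in BALB/c against 1014 to 1669 CPM in FVB.

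Over all 70 families with a separated near-identical copy, the sum of gene and copies overlapped between strains in 56. In most of these the coding gene alone already overlapped. A separated coding gene came with an overlapping sum only for Capza1, Cox7a2l, Ndufs5 and Rpl30. The count of 56 therefore does not measure a trade of reads between gene and copy. For 88 of the 89 separated copies the coding gene was tested, and it overlapped in 70, separated in the same direction in 11 and in the opposite direction in 7. How reads were shared among copies was not tested, so the levels of each such gene and copy are uncertain, also where their sum separated.

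**Figure D3:**
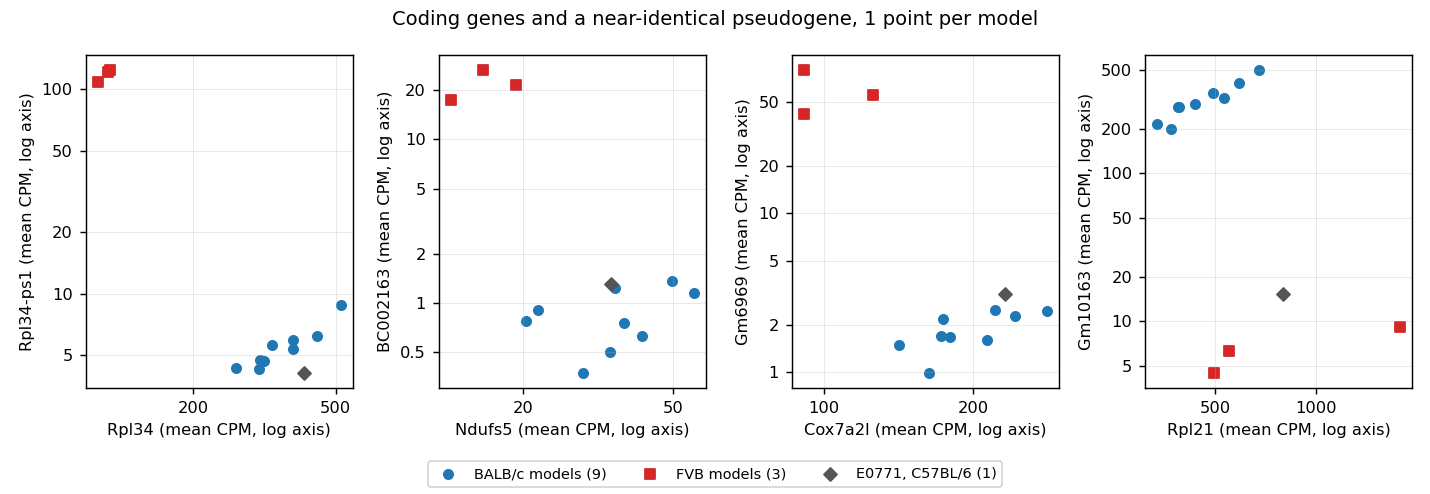
Mean CPM per model of 4 coding genes (horizontal, log axis) and a near-identical pseudogene of each (vertical, log axis), with 9 BALB/c models, 3 FVB models and E0771. FVB models stand high for Rpl34-ps1, BC002163 and Gm6969 with less of the coding gene, whereas Gm10163 is high in the BALB/c models.

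Predicted genes and pseudogenes with the widest gaps are given next, picked for their separation of BALB/c and FVB models. BC023719, an antisense transcript of the MHC region, had at most 0.00543 CPM (2336) in BALB/c against 8.31 (MMTV-NEU), 12.7 (MMTV-PYMT) and 9.14 CPM (KPB1-A) in FVB, a fall of 8.14 ± 0.26 (limma adjusted p = 5e-09), with 0.0625 CPM in E0771. Gm8750, a processed pseudogene of the MHC region, had at most 0.178 CPM in BALB/c against 4.57 to 11.5 CPM in FVB (limma adjusted p = 1.27e-05), and Gm9008 at most 0.619 CPM in BALB/c against 9.83 to 10.4 CPM in FVB (limma adjusted p = 4.63e-05). Higher in BALB/c were Gm14305, at 4.92 to 14.4 CPM in BALB/c against 0 to 0.401 CPM in FVB (6.62 ± 0.48, limma adjusted p = 1.02e-05), Gm14306, at 3.28 to 7.37 CPM in BALB/c against 0.0107 to 0.0769 CPM in FVB, and Rplp0-ps1, at 5.22 to 10.7 CPM in BALB/c against 0.0603 to 0.182 CPM in FVB. Zfp125, which the annotation lists as a transcribed pseudogene, had 7 to 39.8 CPM in BALB/c against 0.384 to 0.838 CPM in FVB and 3.88 CPM in E0771 (limma adjusted p = 0.000257).

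Some separating genes lay close together on the chromosomes. Of 1252 windows of 2 Mb with a tested gene, 59 held at least 4 separating genes. Some of the 59 held many tested genes and a share near the 4.85% of all genes that separated. One was chr8:70000001-72000000, with 4 of 85 (4.71%). A few with higher shares are given. The MHC window (chr17:34000001-36000000) held 14 of 136 tested genes (10.3%), 11 higher and 3 lower in BALB/c, among them H2-Eb1, H2-Ea-ps, Vars, Notch4 and, lower, Btnl2 and Gm8750. A window of chr2 (176000001-178000000) held 9 of 30 (30%), all higher in BALB/c, with 7 called, among them Gm14305, Gm14308 and Gm14296. A window of chr10 (80000001-82000000) held 12 of 108 (11.1%), all higher in BALB/c, of which only Map2k2, a kinase of the mitogen pathway, was called, with 108 to 280 CPM in BALB/c against 44.8 to 73.8 CPM in FVB (limma adjusted p = 0.0438). A window of chr12 (84000001-86000000) held 8 of 44 (18.2%), all lower in BALB/c, including Aldh6a1 and Entpd5.

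Some chromosomes held mostly genes of 1 direction. Chromosome 12 had 64 separating genes of 682 tested (9.38%, against 4.85% of all genes), 9 higher and 55 lower in BALB/c. On the others named here the share was near that of all genes and the directions were unequal. Chromosome 16 had 6 higher and 31 lower of 660 tested (5.61%), and chromosome 18 had 5 higher and 22 lower of 535 (5.05%). More genes were higher in BALB/c on chromosome 19, with 28 higher and 5 lower of 642 (5.14%), and on chromosome 2, with 66 and 26 of 1718 (5.36%). The same held for chromosome 9, with 44 and 18 of 1200 (5.17%), and chromosome 10, with 32 and 10 of 938 (4.48%). These counts carry no test, and DNA copy number was not analysed here.

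**Figure D4:**
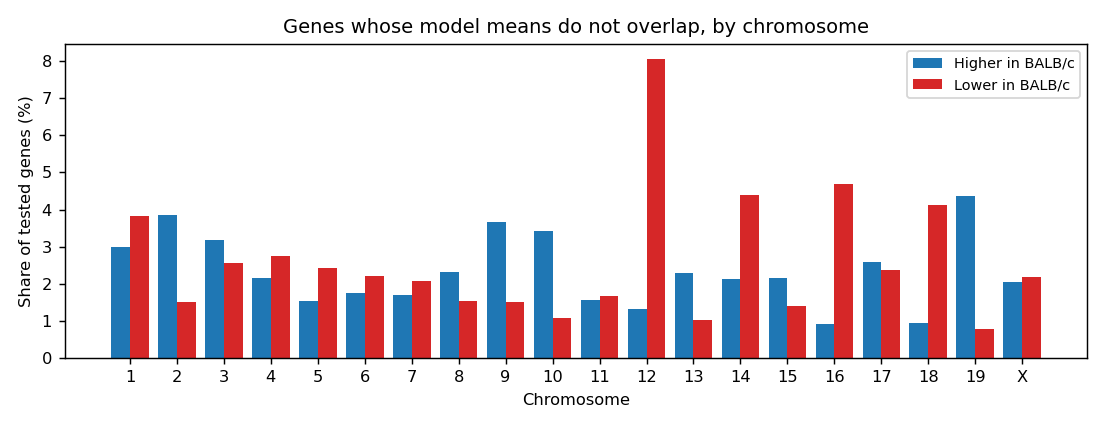
Share of tested genes per chromosome, in percent, whose model means lay higher or lower in BALB/c than in FVB without overlap. The lower share of chromosome 12 is the highest bar, and chromosome 19 has mostly genes higher in BALB/c.

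E0771 stood within or beyond the BALB/c range for 803 of the 1108 separating genes (72.5%), within or beyond the FVB range for 210 (18.95%) and between the strains for 95 (8.57%). Since 9 of the models that set these ranges are BALB/c and 3 are FVB, the sides are unequal by design, and the shares carry no test and do not measure a likeness of E0771 to either strain. Protein-coding genes put it with BALB/c in 550 of 709 (77.6%) and with FVB in 105 (14.8%). Pseudogenes put it with BALB/c in 76 of 157 (48.4%) and with FVB in 66 (42.0%). The fit called 852 genes in E0771 against BALB/c (3.73%), 477 higher (2.09%) and 375 lower (1.64%), and 1156 against FVB (5.06%), 645 higher (2.82%) and 511 lower (2.24%). E0771 is 1 model and was assumed to vary like the others, and the comparisons share its libraries and the models of both strains. Examples beside FVB were Gvin1, Ly6e, Tpm3-rs7, Bend4 and Ifi44l, and examples beside BALB/c were H2-Eb1, Mndal, Vars, Rpl34, Aldh6a1 and A2m.

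**Figure D5:**
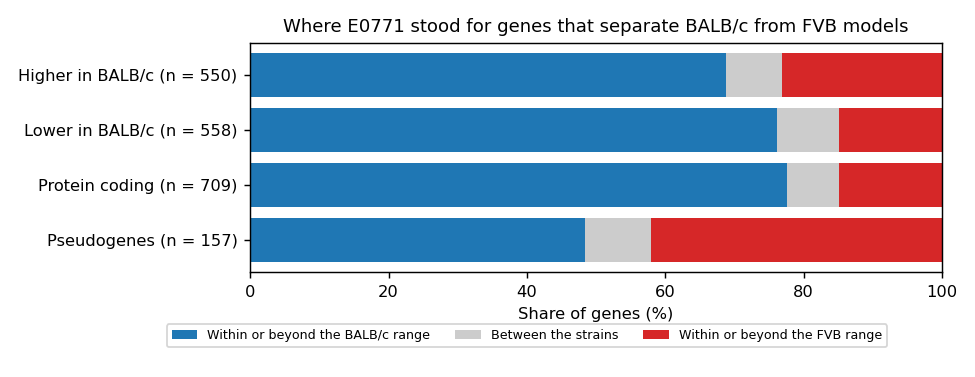
Share of separating genes, in percent, for which the E0771 mean lay within or beyond the BALB/c range, between the strains, or within or beyond the FVB range. The BALB/c share is 77.6% for protein-coding genes and 48.4% for pseudogenes, with ranges set by 9 BALB/c and 3 FVB models, so that the sides are unequal by design.

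Over 40 lists of pathways and cell types, 10 of 576 measured genes were called (1.74%, against 1.38% of all genes) and 33 separated (5.73%, against 4.85%), shares near those of all genes. The called genes were H2-Eb1, H2-Ea-ps, Mndal, Zfp125 and Col1a1 higher in BALB/c, and Ly6e, C7, Cd55, Gstz1 and Lpl lower. Of 21 complement genes 11 had a difference above 0, with a median of 0.10, and 2 were called, both lower in BALB/c. C7, of the membrane attack complex, separated lower and Cfp higher in BALB/c (9.52% of the list, against 4.85% of all genes). C7 had at most 0.0461 CPM in BALB/c against 0.258 to 0.413 CPM in FVB, with limma adjusted p = 0.0505 in the wide range of library numbers. Cd55, which protects cells from complement, was called though it overlapped (-3.96 ± 0.82, limma adjusted p = 0.034). Gstz1, of tyrosine breakdown, had 11.4 to 25.7 CPM in BALB/c against 42.2 to 50.7 CPM in FVB (limma adjusted p = 0.0277, and 0.189 without MMTV-NEU and 0.111 without MMTV-PYMT).

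Erbb2, Trp53 and Cdkn1a overlapped between the strains, whereas Egfr and 1 p53 target, Ercc5, separated them. Egfr, the epidermal growth factor receptor, had 5.95 (2153) to 47 CPM (2224) in BALB/c, median 23.7 CPM, against 110 (MMTV-NEU), 101 (MMTV-PYMT) and 53.4 CPM (KPB1-A) in FVB, which did not pass the fit over all genes (-2.06 ± 0.61, limma adjusted p = 0.142). Erbb2, the receptor that names the NEU transgene, had 23.3 to 151 CPM in BALB/c against 11948 (MMTV-NEU), 80.3 (MMTV-PYMT) and 54.8 CPM (KPB1-A) in FVB (exact permutation p = 0.364, adjusted 0.42), so that 1 FVB model alone stood high. Trp53 had 68.7 (4T1) to 317 CPM (9263) in BALB/c against 82.4 (MMTV-NEU), 118 (MMTV-PYMT) and 17 CPM (KPB1-A) in FVB (exact permutation p = 0.127, adjusted 0.212). Cdkn1a, a p53 target that stops the cell cycle, had 12 to 122 CPM in BALB/c against 37.9 to 88.4 CPM in FVB (exact permutation p = 0.164, adjusted 0.246). Of 24 measured p53 targets 0 were called by limma and 1 separated (4.17%, against 4.85% of all genes). It was Ercc5, a DNA repair nuclease, at 18.8 to 27.8 CPM in BALB/c against 29.7 to 36.6 CPM in FVB. At an unadjusted p under 0.05 there were 4 p53 targets, and edgeR on sums called 0, DESeq2 on sums 2 and edgeR on libraries 18. Over all 22847 genes the counts were 3261, 377, 1449 and 13142, in that order.

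Markers of tissue make-up differed between models beside these results, and their part in them was not tested. Milk protein genes had a median difference of -4.41, with 0 of 16 called by limma and 2 separated (12.5%, against 4.85% of all genes). At an unadjusted p under 0.05 there were 11, and edgeR on sums called 5, DESeq2 on sums 6 and edgeR on libraries 15. Beside this list and those below, the counts over all 22847 genes were 3261, 377, 1449 and 13142, in that order. Csn1s1, a casein, had 0 (T12) to 47.9 CPM in BALB/c against 7685 (MMTV-NEU), 178 (MMTV-PYMT) and 60.5 CPM (KPB1-A) in FVB, and Csn2, another casein, 0 (T12) to 4.64 CPM in BALB/c against 4456 (MMTV-NEU), 486 (MMTV-PYMT) and 2.97 CPM (KPB1-A) in FVB. Csn2 separated by its log2 means and not by these mean CPM. Counts of 0 in T12 allow up to 0.0125 CPM. The milk list level was -1.97 to 3.79 in BALB/c against 7.05 (MMTV-NEU), 5.87 (MMTV-PYMT) and 0.68 (KPB1-A) in FVB. The epithelial marker Epcam was near 0 in T12 (0.66 CPM) and E0771 (0.948 CPM), with 538 CPM as the BALB/c median against 449 to 1613 CPM in FVB.

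Lists of other cell types lay on both sides of 0. Fibroblast genes had a median of 0.98, with 13 of 15 above 0. Col1a1, a collagen chain, and Col1a2 separated higher in BALB/c (13.3% of the list, against 4.85% of all genes). Limma called only Col1a1, with 708 to 2322 CPM in BALB/c against 309 to 618 CPM in FVB and 473 ± 89.5 CPM in E0771 (1.90 ± 0.40, limma adjusted p = 0.037). The limma adjusted p was 0.247 without MMTV-NEU, 0.135 without MMTV-PYMT, 0.0589 without 2224 and 0.192 without KPB1-A replicate 1. For Col1a1 edgeR on sums gave an adjusted p of 0.188. Of the list 5 had an unadjusted p under 0.05, and edgeR on sums called 0, DESeq2 on sums 2 and edgeR on libraries 7. The fibroblast list level was 5.11 to 6.87 in BALB/c against 4.61 (MMTV-NEU), 4.67 (MMTV-PYMT) and 5.84 (KPB1-A) in FVB. Macrophage, T cell, B cell, natural killer and neutrophil lists had 0 called genes by limma. Their median differences were 0.67, 0.34, 0.67, 0.98 and 1.51 in that order. Only 1 gene separated, Cd5 of the T cell list (5.88% of that list, against 4.85% of all genes). At an unadjusted p under 0.05 each of these lists had 1 gene except the neutrophil list with 4. On sums, edgeR called 0 in each, and DESeq2 called 1 T cell, 1 natural killer and 5 neutrophil genes, while edgeR on libraries called 5 to 14 per list. Among immune lists with medians below 0 were plasma cell (-0.47), immunoglobulin constant (-0.26), guanylate-binding (-0.59) and antigen processing genes (-0.16). Each had 0 called by limma and by edgeR on sums, 0 or 1 at an unadjusted p under 0.05, 0 or 1 by DESeq2 on sums and 4 to 7 by edgeR on libraries. In the guanylate-binding list Gbp2b separated, higher in BALB/c (9.09% of the list, against 4.85% of all genes). Medians of the interferon response (-0.17) and Ly6 (-0.018) lists were below 0 as well.

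Luminal genes had a median difference of -1.11, with 1 of 23 above 0 and 0 separated, and a list level of -0.59 (T12) to 5.94 in BALB/c against 5.98 (MMTV-NEU), 6.50 (MMTV-PYMT) and 5.46 (KPB1-A) in FVB. Mesenchymal genes had a median of 1.04, with 16 of 17 above 0. The transcription factors Twist2 and Foxc2 separated higher in BALB/c (11.8% of the list, against 4.85% of all genes). The mesenchymal list level was 3.53 to 5.73 in BALB/c against 2.70 (MMTV-NEU), 3.01 (MMTV-PYMT) and 4.58 (KPB1-A) in FVB. Endothelial genes had a median of 0.41, with 13 of 16 above 0. Cldn5, a tight junction protein, and Plvap, of endothelial pores, separated higher in BALB/c (12.5% of the list, against 4.85% of all genes). Such shares rest on few genes. In these 3 lists limma and edgeR on sums called 0, with 2 luminal, 7 mesenchymal and 5 endothelial genes at an unadjusted p under 0.05. DESeq2 on sums called 0, 3 and 2 of them and edgeR on libraries 18, 12 and 10, in that order. Adipocyte genes had a median of -0.95, with 0 of 11 above 0. Only Lpl, which releases fatty acids from lipoproteins, was called by limma or separated. That is 9.09% of the list, against 1.38% of all genes called and 4.85% separated. Lpl had 7.86 to 16.7 CPM in BALB/c against 27.2 to 59.2 CPM in FVB (limma adjusted p = 0.028). The limma adjusted p was 0.277 without MMTV-NEU, 0.133 without MMTV-PYMT and 0.0508 to 0.0637 without 2208, 2224 or 2225 in turn. At an unadjusted p under 0.05 there were 2 adipocyte genes, and edgeR on sums called 2, DESeq2 on sums 6 and edgeR on libraries 10.

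Transcript length moved with the strains as well. Separating protein-coding genes higher in BALB/c had a median transcript length of 2247 bases and 53.05% GC, those lower in BALB/c 3886 bases and 47.0% GC, and all tested protein-coding genes 3196 bases and 50.0% GC. A length index, the median over protein-coding genes of the top quartile of transcript length minus that of the bottom quartile, each on log2 levels relative to the mean of the gene over all libraries, was -0.15 (9263) to 0.32 (T12) in BALB/c against 0.39 (MMTV-NEU), 0.32 (MMTV-PYMT) and 0.39 (KPB1-A) in FVB and -0.24 in E0771. With the length and GC trend subtracted, 252 genes were called and 997 separated. Of the called genes that had a length, 237 of 297 stayed called and all 297 kept their sign, which their choice in the same libraries made likely. Of the separating genes tested there, 737 of 1057 still separated.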

How the data were processed

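RNA was measured by mRNA sequencing in 82 mammary tumour libraries. Per the submitters' processing notes, STAR, SAMtools, Picard and Salmon and the mm10 build were used, and the counting step, its annotation and its strand setting are not given in the sources used here. The deposited table holds expected counts per gene, of which 85.5% were whole, and they were rounded. The authors' second deposited table holds a normalized signal, used as an alternative only. No column of values was left unused.

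Genes were kept by filterByExpr of edgeR 4.0.16 (minimum count 10, minimum total 15, by model). Log2 CPM with TMM factors and a prior count of 2 were averaged per model. limma 3.58.1 (R 4.3.3), with trend and robust variance, was fitted to 13 model means with 1 mean per strain, and p-values were adjusted by Benjamini-Hochberg over 22847 genes at a threshold of 0.05. The rule that sets the model as the unit led to limma in place of a count test, and edgeR and DESeq2 1.42.0 on counts were alternatives. CPM printed in the text are means over the libraries of a model, whereas separation was read from the log2 means. Exact two-sided permutation tests ran over 220 assignments for 15 genes (smallest p 0.00909) and are printed only for genes whose model means overlap, since separation fixes the p. The fit was tested on simulated data.

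Named genes were the 12 per direction with the widest gap among called, separating genes whose higher strain averaged at least 5 CPM over its models, leaving out predicted genes and pseudogenes by symbol (names such as Gm with digits, BC with digits, Rik or -ps). To these came 4 per direction of the left-out kind, list members with the widest gap or smallest adjusted p, and a few fixed genes. Others, among them genes beside H2-Eb1, coding parents of copies and window members, were picked with their values in view. The members and lists were chosen with earlier results of these data known. Limits from counts of 0 are 3 counts over the summed depth of a model and cover counting error only. Names and positions came from GENCODE M21, which matched 21874 genes (95.7%). Without strand, overlapping and antisense genes cannot be told apart. Alternatives were other tools, scalings, filters and prior counts, each of the 12 BALB/c and FVB models left out, 27 single libraries left out, and libraries of a wide or a narrow range of the numbers in their titles. Subtraction of a length and GC trend was added after seeing the data.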

Additional observations from a re-analysis of the deposited data

Results flagged for a closer look

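Among 42 genes checked over the 9 BALB/c model means, 3 had 1 model far from the others, past the critical ratio of 0.493, where chance gives about 1 in 20. Gdpd3 stood at 1.89 log2 CPM in 2224, against -0.52 to 0.53 in the other BALB/c models. Gstz1 stood at 3.49 log2 CPM in 2208, against 4.26 to 4.68 in the others. Zfp125 stood at 5.28 log2 CPM in 2336, against 2.77 to 3.56 in the others.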

How the results depend on the processing

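All 316 called genes kept their sign with every other tool, scaling, filter and prior count in which they were tested. Their choice by this contrast in the same libraries made that likely. The number called depended on the tool and on the unit. On sums per model edgeR called 377 (227 of the 316, 18 list members against 10) and DESeq2 1449 (700 higher and 749 lower in BALB/c, 56 list members). On libraries edgeR called 13142 (5809 higher, 7333 lower, 375 list members). That fit takes libraries of 1 model as replicates, so its count does not measure spread between models. The median of all genes moved to 0.12 with edgeR on sums. With no filter 1805 genes were called for E0771 against BALB/c and 2098 against FVB. With a mean of 1 CPM in a model, 169 genes were called, 74 lower, and 552 for E0771 against BALB/c. Without T12 and 4T1 1699 genes separated. The wide range of library numbers gave 139 calls (73 higher, 66 lower), 2548 separating genes and 5 list members. The narrow range gave 4 (1 higher, 3 lower), 2871 and 0. Fewer models and libraries entered these last fits.

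Leaving out each of the 12 BALB/c and FVB models, or each of 27 libraries of 2224, 2336, 4T1, E0771, KPB1-A, MMTV-PYMT and T12, gave 151 to 633 calls (62 to 230 higher, 89 to 403 lower), 1060 to 3651 separating genes and 4 to 21 list members. Genes that turned sign were not called: Gm12648 -0.23 (the authors' normalized values); Cd74 -0.088 without T12 and 4T1, -0.27 (wide range) and -0.55 (narrow range); Cd48 -0.070 and -0.027 and Krt5 1.39 and 0.46 in those ranges. Kit 0.35, Myo5a -0.081, H2-Aa -0.30 and Rps3a1 -0.052 turned with the narrow range, and Rps3a1 -0.00586 with the length and GC trend subtracted. Over those left out, differences ran from -0.24 (without 2336) to 0.23 (without KPB1-A) for Rps3a1, from -5.06 (without MMTV-NEU) to 0.22 (without KPB1-A) for Krt5, from -3.48 (without KPB1-A) to 0.41 (without MMTV-NEU) for Erbb2, from -2.47 to 0.016 for Igha likewise, and from -0.63 (without KPB1-A) to 0.00699 (without MMTV-PYMT) for Calr. The cause was not tested. No paired analysis was possible because replicate numbers follow accession order and the strains share no animal. Low counts limit genes near 0 CPM.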

Other observations

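Syna, which encodes the mouse placental fusion protein syncytin-A, was lower in BALB/c, as was Ly6e, known in mouse as its receptor. Syna had a log2 difference of -2.11 ± 0.46 (limma adjusted p = 0.0425) and its model means did not overlap. It was chosen after its values were seen.

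Proteasome subunits had a median difference of 0.36, with 15 of 17 above 0. Psmb3, Psmb4 and Psmb5 separated higher in BALB/c (17.6% of the list, against 4.85% of all genes). Limma called 0 of the 17, edgeR on sums 0, DESeq2 on sums 1 and edgeR on libraries 15, and 7 had an unadjusted p under 0.05. Over all 22847 genes these counts were 316, 377, 1449, 13142 and 3261, in that order. Psmb3, a beta subunit of the catalytic core, had 80.6 to 186 CPM in BALB/c against 49.9 to 61.8 CPM in FVB (limma adjusted p = 0.0958). Cfl1, the actin-severing cofilin, had 1001 to 1554 CPM in BALB/c against 546 to 845 CPM in FVB, a rise of 0.96 ± 0.19 (limma adjusted p = 0.0277). Its window of chromosome 19 held 9 separating genes of 102 tested (8.82%, against 4.85% of all genes), all higher in BALB/c.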
